A study of Mus musculus with 24 samples.

Results

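The proliferation and mitosis genes are 40 genes whose RNA rises as cells replicate their DNA and divide. They were chosen by symbol, as rows whose Ensembl identifier maps to one of the 40 symbols, from 48795 gene identifiers in each of the deposited tables, and all 40 were found once in each table. RNA was sequenced from cells sorted out of lungs of female Balb/c mice, which were 8 weeks old, in 24 libraries. Sham mice were not irradiated and received a control IgG antibody, irradiated mice received 13 Gy on the lungs and the same IgG, and depleted mice received 13 Gy and were injected each day with anti-Ly6G, an antibody that removes neutrophils. Lungs were taken 7 days after the irradiation, and each group held 4 mice, 1 library of a fraction from each. The labels do not say whether both fractions came from the same mice. No group here combined the Ly6G antibody with sham irradiation, so the antibody is read against the IgG within irradiated lungs only. Cells lacking CD45, CD31 and Ter119 were split by EpCAM into an EpCAM-positive epithelial and an EpCAM-negative mesenchymal fraction, and each fraction has its own table and its own scale.

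A cell that commits to division first raises the genes of DNA replication, which E2F transcription factors switch on once the retinoblastoma protein releases them. Origin licensing factors load the MCM helicase onto DNA, and enzymes of nucleotide synthesis supply the replication fork. The genes of mitosis follow later, driven by B-Myb and FoxM1 with the MuvB complex at promoter elements named CHR, and the DREAM complex holds them down in resting cells. DNA damage raises Cdkn1a, the p53 target that encodes the cyclin-dependent kinase inhibitor p21 and lowers this programme. Most cells of an adult lung rest, and alveolar type II cells and fibroblasts divide at low rates in renewal and after injury.

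The epithelial libraries held 8159062 to 13373329 recovered reads and the mesenchymal libraries 7366672 to 11408083. Where a gene is listed at 0, up to 3 reads are allowed by counting error alone, which are 2.36 to 3.81 normalised counts per epithelial and 2.48 to 3.66 per mesenchymal library. The fractions carried their labelled markers. The summed normalised count of 10 pan-epithelial markers was 19409 to 20897 in sham epithelium, and that of 10 mesenchymal markers was 211641 to 289197 in sham mesenchyme. Markers of other cells moved with the treatment in both fractions. In the epithelial table the sum of 12 endothelial markers was 1707 to 2329 in the sham group, 2581 to 4214 in the irradiated group and 2471 to 3516 in the depleted group, and the sum of 10 mesenchymal markers was 10619 to 11886, 12174 to 14412 and 14911 to 16392. Ptprc, which encodes CD45, stood at 80, 115, 50.9 and 28.1 in sham and 191, 284, 104 and 160.0 in irradiated epithelium. In the mesenchymal table the sum of 10 leukocyte markers was 432 to 1144 in the sham group, 1192 to 2549 in the irradiated group and 903 to 1970.5 in the depleted group, and that of 10 pan-epithelial markers was 195 to 380.3, 370.2 to 626 and 439.7 to 672. Ly6g was listed at 0 in every sham epithelial library and reached 5.08 at most in a depleted one. Other neutrophil markers were present, and the summed normalised count of that whole list in the sham, irradiated and depleted groups was 317 to 2203, 318 to 1264 and 1026 to 2507 for the epithelium. Ltf alone made up 96.6% of that sum in sham epithelium, so the sum there mostly follows 1 gene. For the mesenchyme the sum was 112 to 281, 372 to 788 and 319 to 796. Of the 8 tested in the epithelium, 4 rose with irradiation and 5 from sham to depleted, with median log2 changes of 2.06 and 2.39. Of the 9 tested in the mesenchyme, 4 and 6 rose, with medians of 1.68 and 2.31. From irradiated to depleted, 0 of the 8 were called in the epithelium, and 2 of the 9 fell and 0 rose in the mesenchyme. Over all tested genes of the epithelium and the mesenchyme, 3.14% and 3.8% were called with irradiation. Those shares were 11.3% and 15.2% from sham to depleted, and 0.475% and 2.69% from irradiated to depleted. The part that cells of these marker lists have in the results was not tested. In such bulk samples, fewer dividing cells and less RNA per dividing cell cannot be told apart.

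The promoters of 32 of the 40 genes were found in the RefSeq table on GRCm38.p6, in 33 windows of 250 bases before to 50 bases after the start. A CHR element (TTTGAA or TTCGAA, either strand) lay in 16 of the 33 windows, 48.5%, and in 19.2% of all 32851 windows. An E2F match (TTTCCCGC, TTTCGCGC, TTTGCCGC or TTTGGCGC, either strand) lay in 7 of the 33, 21.2%, and in 2.26% of all windows. A CCAAT box (either strand), the usual partner of the CHR, lay in 75.8% of the 33 windows and in 37.4% of all. Every one of the 7 genes with an E2F match was a licensing or helicase gene or Cdk1 (Cdc6, Cdk1, Cdt1, Mcm3, Mcm5, Mcm6 and Mcm7), and the CHR matches lay mostly at mitotic genes, such as Mki67, Top2a, Bub1, Cenpf and Plk1. The 200 bases before the RefSeq start are shown for 2 mitotic genes with a CHR and 2 helicase genes with an E2F match on which the results turn, 5′ to 3′ along the gene, with every CHR, E2F and CCAAT match in capitals. In Mcm5 and Mcm6 a pair of E2F matches overlaps, so the capitals run together.
Mki67, chr7:135716380-135716579, minus strand: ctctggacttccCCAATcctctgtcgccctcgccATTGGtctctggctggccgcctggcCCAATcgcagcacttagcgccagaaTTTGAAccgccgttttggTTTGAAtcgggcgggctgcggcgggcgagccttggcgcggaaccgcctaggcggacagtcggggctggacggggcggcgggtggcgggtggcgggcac
Top2a, chr11:99024190-99024389, minus strand: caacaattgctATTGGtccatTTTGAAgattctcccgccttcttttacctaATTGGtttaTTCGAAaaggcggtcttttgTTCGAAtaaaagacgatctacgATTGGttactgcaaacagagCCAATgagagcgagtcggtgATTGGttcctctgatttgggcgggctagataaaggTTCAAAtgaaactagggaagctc
Mcm5, chr8:75109309-75109508, plus strand: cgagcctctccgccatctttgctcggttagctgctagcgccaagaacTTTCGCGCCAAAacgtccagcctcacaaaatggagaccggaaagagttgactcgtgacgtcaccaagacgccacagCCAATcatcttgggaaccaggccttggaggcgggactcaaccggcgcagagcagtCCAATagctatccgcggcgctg
Mcm6, chr1:128359706-128359905, minus strand: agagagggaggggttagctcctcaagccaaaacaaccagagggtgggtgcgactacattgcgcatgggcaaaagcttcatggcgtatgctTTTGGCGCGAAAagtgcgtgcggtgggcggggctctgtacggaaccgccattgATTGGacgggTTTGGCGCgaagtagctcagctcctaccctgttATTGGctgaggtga
A match is a run of letters and not evidence that a factor was bound there.

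In sham lungs most of the genes were expressed at low levels in both fractions, and Pcna stood far above the rest. Levels between genes are compared here only as normalised counts per kilobase of exon, within a table. In sham epithelium they ran from 0.424 for Cdc25c, the phosphatase that activates Cdk1, to 243 for Pcna, the sliding clamp of the replication fork, with a median of 9.02. The next levels were those of the helicase subunit Mcm4 (56.5), the thymidine kinase Tk1 (45.1), the helicase subunit Mcm7 (40.4) and Cdc20 (33.6), which activates the anaphase-promoting complex, against 22.8 for Mki67 and 10.4 for Top2a. In sham mesenchyme they ran from 0.0936 for Cdc25c to 169 for Pcna, with a median of 4.29. Mcm4 (87.5) and Rrm1 (33.4) followed Pcna there, while Mki67 stood at 4.79 and Top2a at 1.76 per kilobase.

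Most libraries held under 10 normalised counts for 6 genes in the epithelium (Ccnb1, Cdc25c, Aurkb, Birc5, Tpx2 and Ube2c) and for 10 in the mesenchyme (Ccnb1, Cdk1, Cdc25c, Cdc45, Bub1, Bub1b, Aurkb, Birc5, Cenpf and Ube2c). With a filter of at least 10 in at least 4 of 12 libraries, 35 of the 40 genes were tested in the epithelium and 31 in the mesenchyme. The 5 left out in the epithelium were Ccnb1, Cdc25c, Aurkb, Birc5 and Ube2c, and the 9 left out in the mesenchyme were these and Cdk1, Bub1, Bub1b and Cenpf. A gene that is high in 1 group only can pass this filter through that group, so the tested genes are not all of the 40. Exons of other genes cover over 10% of the exon bases of 6 of the 40 genes (Ccna2, Ccne2, Cdc25c, Mcm7, Kif20a and Ube2c), and since the strand setting of the counting is not given in the sources used here, reads of a neighbour cannot be told apart there. Among the untested genes Ube2c, the ubiquitin-conjugating enzyme of the anaphase-promoting complex, stood at 13.7, 9.55, 14.3 and 19.8 in sham, 8.81, 6.3, 7.28 and 0.804 in irradiated and 3.37, 5.08, 3.39 and 1.2 in depleted libraries of the epithelium, with both irradiated groups wholly below sham. Ccnb1, which encodes cyclin B1, stood at 0, 0.827, 2.02 and 4.99 in sham, 5.16, 11.4, 6.1 and 1.22 in irradiated and 3.07, 6.3, 9.66 and 6.05 in depleted libraries of the mesenchyme, where the groups overlapped through sham replicates 3 and 4 and irradiated replicate 4.

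The mean log2 distance of the 40 genes from their sham mean gives 1 level per library, as a description with no test. In the epithelium it was 0.02, -0.18, 0.03 and 0.12 in sham replicates 1 to 4, 0.07, -0.43, -0.53 and -0.65 in irradiated and -0.36, -0.29, -0.50 and -0.90 in depleted replicates. Irradiated replicate 1 lay among the sham libraries, and the other irradiated and all depleted libraries lay below them. In the mesenchyme it was -0.15, 0.15, 0.04 and -0.04 in sham, 0.38, 0.27, 0.21 and 0.11 in irradiated and 0.37, 0.45, 0.36 and 0.08 in depleted replicates. There the irradiated and depleted groups lay higher on the mean, and sham replicate 2 overlapped both. By role and on the group means, the chromosome, kinetochore and spindle genes lay farthest from sham in the epithelium. They stood at 0.40, -0.88, -1.27 and -1.21 in irradiated and -0.69, -0.47, -1.0 and -1.64 in depleted replicates. In depleted replicates 1 and 2 the checkpoint and anaphase-promoting complex genes lay farther, at -0.76 and -0.65. The 5 fork and nucleotide genes lay nearest among the roles on the mean of the depleted group, at 0.02, -0.15, -0.16 and -0.03. In depleted replicates 1 and 3 the G1/S genes lay nearer, at 0.01 and -0.06.

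**Figure D1:**
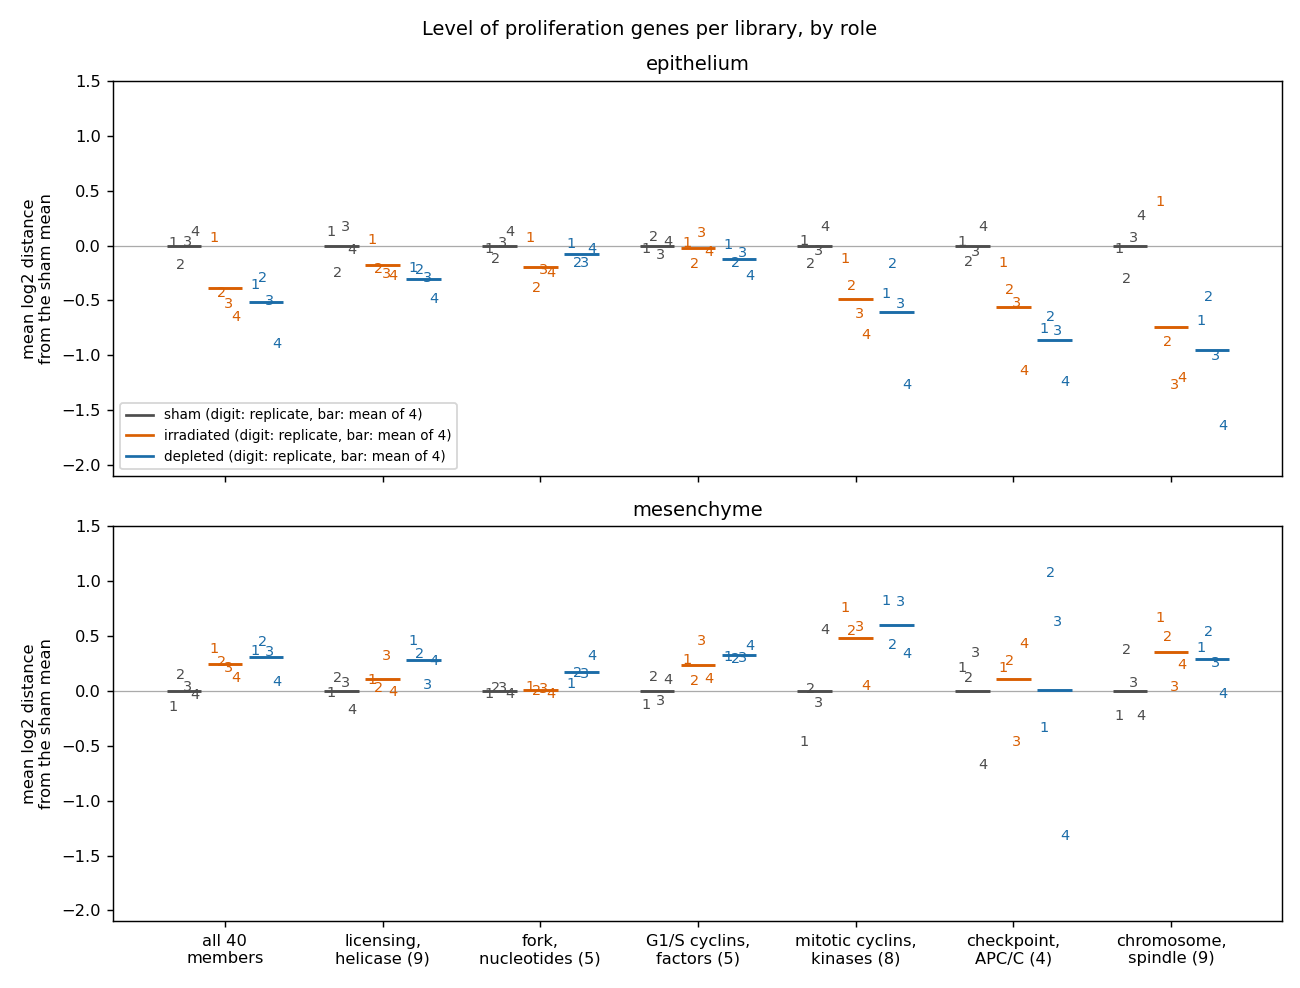
Mean log2 distance from the sham mean (y axis, log2 of the normalised count + 1) of all 40 genes and of the genes of each role (x axis, number of genes in brackets), per library. Digits are replicates and bars are means of 4 libraries. Epithelial irradiated replicate 1 sits at 0.07 for all 40 genes, among the sham libraries, while the other irradiated epithelial libraries sit between -0.43 and -0.65.

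**Figure D2:**
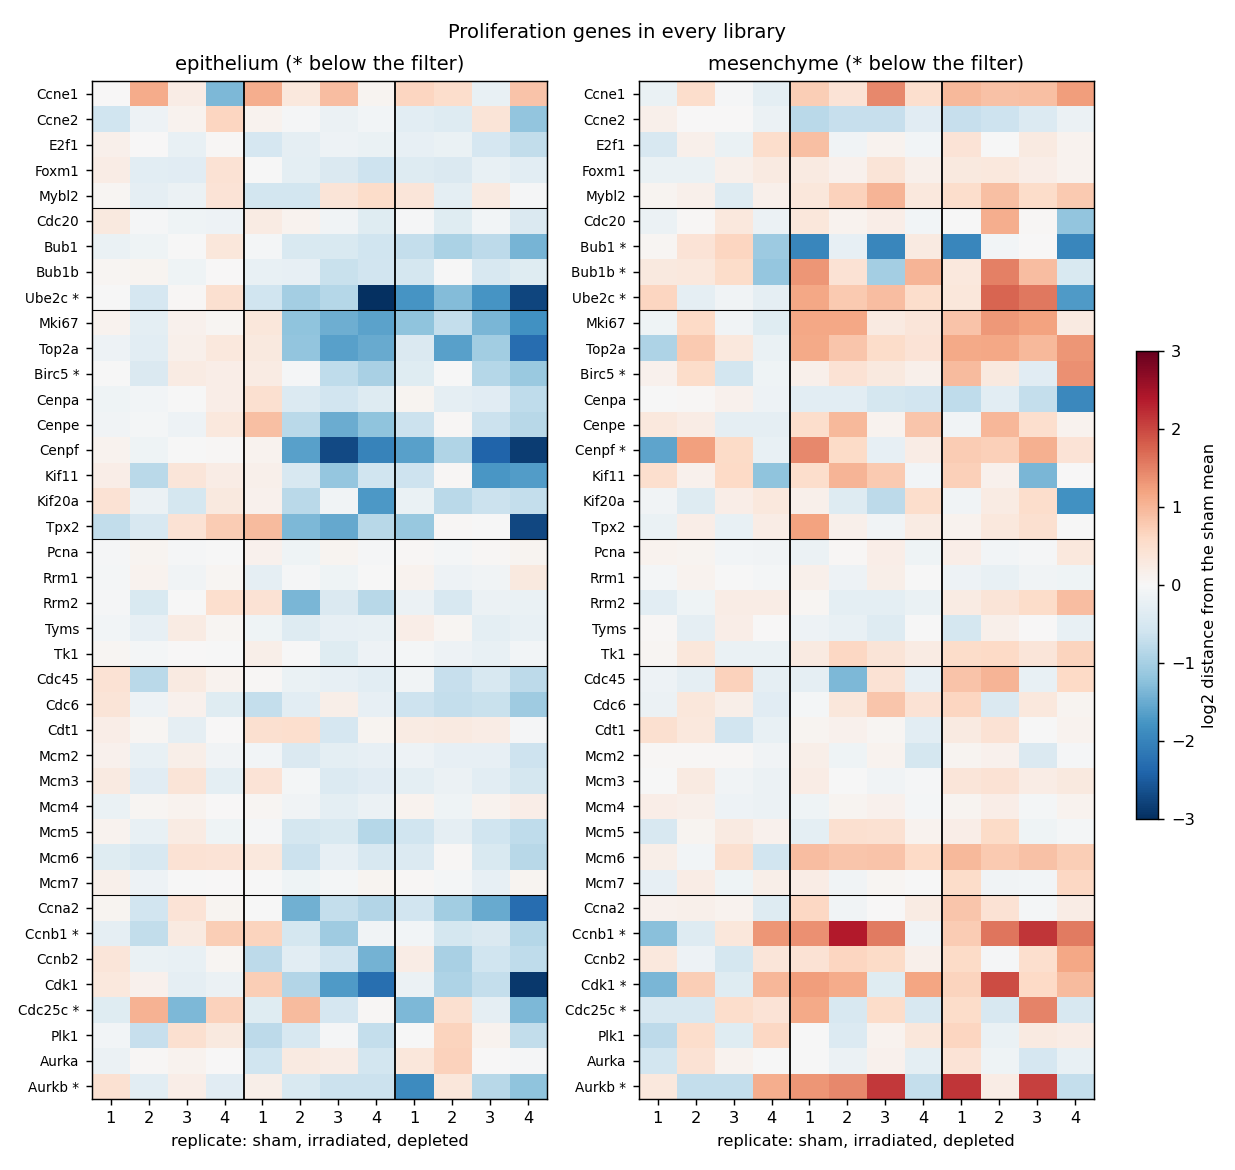
Each of the 40 genes (rows, ordered by role) in each of the 24 libraries (columns), as the log2 distance from the sham mean of its table (colour scale, -3 to 3). An asterisk marks the 5 epithelial and 9 mesenchymal genes left out of the test. In the epithelium most mitotic genes turn blue in irradiated replicates 2 to 4 and in the depleted libraries, and in the mesenchyme Mki67, Top2a, Mcm6 and Ccne1 turn red in both irradiated groups.

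The first comparison asks what irradiation changed in the epithelium. Of the 35 tested genes 0 rose and 0 fell between irradiated and sham libraries (limma, adjusted p under 0.05), where 3.14% of all 16626 tested genes were called. At an unadjusted p under 0.05 there were 7 genes of the 35, beside 14.3% of all tested genes, and edgeR and DESeq2 on recovered reads also called 0. The fitted change was below 0 for 32 of the 35 and for 51.9% of all tested genes, with a median log2 change of -0.28 against -0.01 over all. The groups did not overlap for 2 of the 35, Ccnb2 and Bub1b, both lower, as for 3.89% of all tested genes, and 0 lay wholly higher, against 4.94%.

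This count rests on irradiated replicate 1. It was the highest of the 4 irradiated libraries for 26 of the 35 tested genes, 74.3%, and for 26.9% of all tested genes. Its Cdkn1a was 2545, the lowest of the irradiated values (2545, 4162, 3126 and 3453) and above every sham value (532, 559, 533 and 455). Irradiated replicate 2, with the highest Cdkn1a, was the lowest of the 4 for 7 of the 35 genes, 20%, and for 21.1% of all tested genes. A link between Cdkn1a and the level of these genes was not tested. Without irradiated replicate 1, 4 genes fell and 0 rose (limma), where 1.31% of all tested genes fell. They were Mki67 (-1.42, adjusted p = 0.00182), Top2a (-1.44, adjusted p = 0.0368), Cenpf (-2.11, adjusted p = 0.00541) and Cenpe (-1.17, adjusted p = 0.0436), as log2 changes. Over all alternatives and left-out libraries their adjusted p ranged from 0.00182 to 0.568, 0.0368 to 0.62, 0.00541 to 0.399 and 0.0436 to 0.867 in that order, and no other alternative called them. Cenpe, a kinesin that moves chromosomes to the spindle equator, stood at 18.5, 19.1, 17.9 and 25 in sham, 38.2, 11, 6.47 and 8.04 in irradiated and 12.3, 20.3, 12.4 and 10.8 in depleted libraries.

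The comparison of depleted with sham epithelium shares its sham libraries with the one above. Here 5 of the 35 tested genes fell and 0 rose (limma, adjusted p under 0.05), where 4.76% of all tested genes fell and 6.52% rose. The 5 were the checkpoint kinase gene Bub1, the cyclin gene Ccna2, the licensing gene Cdc6, the helicase gene Mcm5 and the kinetochore gene Cenpf, described with their values under their roles. The median log2 change was -0.34 against -0.01 over all genes, and 27 of the 35 were fitted below 0, as were 51.3% of all. Every depleted library lay below every sham library for 8 of the 35 (Mki67, Top2a, Ccna2, Cdc6, Mcm5, Tk1, Bub1 and Cenpf), as for 7.89% of all tested genes, and above for 0, against 8.76%. Bub1 stayed called with each library left out in turn. Bub1 alone was called when sham replicate 3 or depleted replicate 4 was left out. The call count was 2 without sham replicate 1 (Bub1 and Ccna2) or sham replicate 4 (Bub1 and Cdc6). It was 3 without irradiated replicate 2 or depleted replicate 3 (Bub1, Ccna2 and Cdc6), and 4 without sham replicate 2 or irradiated replicate 4 (all but Cenpf) or depleted replicate 1 (Bub1, Ccna2, Cdc6 and Top2a). It was 6 without depleted replicate 2, where Kif11 joined the 5, and 7 without irradiated replicate 1, where Mki67 and Top2a did.

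Among the licensing and helicase genes, Cdc6 (ENSMUSG00000017499, chromosome 11, 98907801 to 98923940 on GRCm38) helps load the helicase onto origins. Cdc6 stood at 64.4, 43.5, 53.6 and 37.5 in sham, 29.4, 38.6, 55 and 41 in irradiated and 31.4, 29.2, 30.5 and 22.7 in depleted libraries of the epithelium. All depleted libraries lay below all sham libraries, and irradiated replicate 3 lay among sham. The log2 change from sham to depleted was -0.77 ± 0.215 (SE, limma, adjusted p = 0.0279), with adjusted p of 0.0205 to 0.086 over the alternatives. Mcm5 (ENSMUSG00000005410, chromosome 8, 75109569 to 75128439), a helicase subunit, stood at 96.6, 76.4, 107 and 81.2 in sham, 87.1, 62.2, 64.7 and 49 in irradiated and 58.4, 73.7, 58.7 and 52.6 in depleted libraries. It fell by 0.56 ± 0.172 on the log2 scale from sham to depleted (limma, adjusted p = 0.0438), again with no overlap, and its adjusted p ranged from 0.0262 to 0.144 over the alternatives. The other subunits did not pass. Mcm6 stood at 61.5, 57.3, 108 and 107 in sham, 99.8, 50.4, 67.2 and 57.1 in irradiated and 59.5, 82.6, 57.6 and 44.3 in depleted libraries, with sham replicates 1 and 2 low and 3 and 4 high. Mcm3 stood at 82, 53.1, 88.4 and 55.2 in sham, 91, 65.4, 51 and 53.1 in irradiated and 55, 59.7, 54.2 and 46.7 in depleted libraries, where the groups overlapped. Mcm4, the helicase subunit of highest level per kilobase, stood at 176, 212, 219 and 205 in sham, 209, 188, 166 and 178 in irradiated and 217, 186, 217 and 231 in depleted libraries. Its groups overlapped as well. Cdc45, part of the active helicase, stood at 26.3, 10.6, 23.2 and 20.8 in sham, 19.6, 16.5, 16.2 and 15.3 in irradiated and 18, 11.4, 13.5 and 10.8 in depleted libraries, with sham replicate 2 the lowest of the 12.

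Of the fork and nucleotide genes, Tk1, the thymidine kinase of the salvage pathway, stood at 243, 225, 238 and 232 in sham, 266, 234, 182 and 211 in irradiated and 223, 212, 199.7 and 220.2 in depleted libraries. Depleted libraries lay wholly below sham, by a log2 change of -0.13 ± 0.0986 (SE, limma, adjusted p = 0.445), which was not called. Rrm1, the large subunit of ribonucleotide reductase, stood at 281, 313, 269 and 304 in sham, 241, 284, 266 and 290.2 in irradiated and 315, 261, 271 and 355 in depleted libraries. Its groups overlapped. Rrm2, the small subunit, stood at 17.6, 12.7, 17.9 and 26 in sham, 24.5, 6.3, 12.9 and 9.65 in irradiated and 15.7, 12.7, 15.8 and 15.6 in depleted libraries, with irradiated replicate 1 near the top of the sham range and replicate 2 the lowest of the 12. The sliding clamp Pcna changed by 0.01 ± 0.0652 on the log2 scale with irradiation (limma, adjusted p = 0.978). Of the cyclin E genes that open S phase, Ccne1 stood at 6.83, 15.9, 8.04 and 2.08 in sham, 15.7, 8.67, 13.8 and 7.23 in irradiated and 11.2, 10.2, 5.64 and 13.2 in depleted libraries. Ccne2 stood at 18.5, 25.5, 30.4 and 44.8 in sham, 30.3, 27.6, 25.1 and 26.5 in irradiated and 22.4, 21.6, 37.2 and 12 in depleted libraries. Both genes overlapped widely between the groups. The remaining genes of these roles in the epithelium (Cdt1, Mcm2, Mcm7, Tyms, E2f1, Foxm1 and Mybl2) changed between -0.34 (Foxm1) and 0.15 (Cdt1) on the log2 scale with irradiation, and 0 were called.

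Among the mitotic cyclins and kinases, Ccna2 (ENSMUSG00000027715, chromosome 3, 36564865 to 36572150) encodes cyclin A2, which acts in S phase and G2. Ccna2 stood at 29.3, 18, 36.6 and 29.1 in sham, 27.4, 9.45, 16.2 and 14.5 in irradiated and 18, 12.7, 9.03 and 4.79 in depleted libraries of the epithelium. The lowest sham library was 18 and the highest depleted one 17.95, so the groups met without overlap, and the log2 change from sham to depleted was -1.36 ± 0.368 (SE, limma, adjusted p = 0.023), with adjusted p of 0.0143 to 0.0806 over the alternatives. An overlap with exons of Exosc9 on the other strand covers 12.5% of its exon bases. Ccnb2, a B-type cyclin of mitosis, stood at 27.3, 18, 17.9 and 21.9 in sham, 11.7, 16.5, 13.8 and 7.23 in irradiated and 24.7, 10.2, 13.5 and 12 in depleted libraries. All irradiated libraries lay below all sham libraries, depleted replicate 1 lay among sham, and the log2 change with irradiation was -0.77 ± 0.313 (SE, limma, adjusted p = 0.233), which was not called. Plk1, a kinase that starts mitosis, stood at 11.7, 7.43, 17.9 and 15.6 in sham, 6.85, 8.67, 12.1 and 7.23 in irradiated and 12.3, 20.3, 13.5 and 7.18 in depleted libraries, with the groups overlapping. Cdk1, the kinase partner of these cyclins, had a log2 change of -1.03 ± 0.621 (SE, limma, adjusted p = 0.511) with irradiation, and irradiated replicate 1 (26.4) was above every sham library while replicates 2 to 4 (7.88, 4.05 and 2.41) were below.

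Of the spindle checkpoint genes, Bub1 (ENSMUSG00000027379, chromosome 2, 127801122 to 127831865) encodes a kinase that delays anaphase until chromosomes are attached. Bub1 stood at 83.9, 88.1, 96.5 and 122 in sham, 93, 70.1, 69.6 and 63.5 in irradiated and 58.4, 49.6, 55.3 and 35.9 in depleted libraries of the epithelium. Depleted libraries lay below both other groups without overlap, and irradiated replicate 1 lay among sham. Bub1 fell by 0.96 ± 0.173 on the log2 scale from sham to depleted (limma, adjusted p = 0.00174), a 1.95-fold lower level, with adjusted p of 6.64e-05 to 0.00844 over every alternative run. From irradiated to depleted the log2 change was -0.57 ± 0.173 (SE, limma, adjusted p = 0.154), not called. Bub1b, its partner kinase at the checkpoint, stood at 72.2, 73.2, 63.4 and 69.7 in sham, 59.7, 58.3, 43.7 and 46.6 in irradiated and 48.3, 68.6, 49.7 and 53.8 in depleted libraries. Irradiated libraries lay wholly below sham, with a log2 change of -0.42 ± 0.156 (SE, limma, adjusted p = 0.179), and depleted replicate 2 lay among sham.

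The chromosome, kinetochore and spindle genes held the widest differences. Mki67 (ENSMUSG00000031004, chromosome 7, 135689784 to 135716361), whose protein coats mitotic chromosomes and is the usual marker of cycling cells, stood at 245, 186, 247 and 238 in sham, 287, 98.5, 81.7 and 74 in irradiated and 98.8, 139, 86.9 and 63.4 in depleted libraries of the epithelium. Irradiated replicate 1 was the highest of the 12 libraries, irradiated replicates 2 to 4 lay under all sham libraries, and so did all depleted libraries. The log2 change of Mki67 was -0.99 ± 0.406 (SE, limma, adjusted p = 0.296) with irradiation and -1.28 ± 0.406 (SE, limma, adjusted p = 0.0762) from sham to depleted, and neither was called. Top2a (ENSMUSG00000020914, chromosome 11, 98992943 to 99024189), the topoisomerase that untangles sister chromatids, stood at 82, 73.2, 103 and 116 in sham, 113, 40.2, 29.1 and 31.3 in irradiated and 67.3, 29.2, 44 and 17.9 in depleted libraries. Irradiated replicate 1 lay among the sham libraries and the other irradiated and all depleted libraries lay below them, with log2 changes of -1.01 ± 0.468 (SE, limma, adjusted p = 0.363) with irradiation and -1.35 ± 0.468 (SE, limma, adjusted p = 0.0952) from sham to depleted, not called. Without irradiated replicate 1, which then also left the shared estimate of the spread, the adjusted p of the change from sham to depleted was 0.000903 for Mki67 and 0.0161 for Top2a. The change of Mki67 was also called with the 2 groups fitted alone (adjusted p = 0.00313) and by DESeq2 (0.0418), and that of Top2a with the 2 groups alone (0.0411) and without depleted replicate 1 (0.0495). Over all alternatives their adjusted p ranged from 0.000903 to 0.19 for Mki67 and from 0.0161 to 0.222 for Top2a.

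Cenpf (ENSMUSG00000026605, chromosome 1, 189640606 to 189688086), a kinetochore protein, stood at 62.4, 53.1, 57.2 and 59.3 in sham, 62.6, 18.1, 8.09 and 13.7 in irradiated and 18, 30.5, 10.2 and 7.18 in depleted libraries of the epithelium. Irradiated replicate 1 matched the sham libraries and the other 7 irradiated and depleted libraries lay below them. From sham to depleted Cenpf fell by 1.95 ± 0.545 on the log2 scale (limma, adjusted p = 0.041), a 3.85-fold lower level. That call ended under 11 of 22 alternatives, among them each left-out sham library, irradiated replicates 2 and 4, depleted replicates 1, 3 and 4, no filter and edgeR, with adjusted p of 0.00215 to 0.119 over all. Cenpa, the centromeric variant of histone H3, stood at 38.1, 39.3, 41.1 and 47.9 in sham, 57.7, 30.7, 27.5 and 31.3 in irradiated and 43.8, 34.3, 32.7 and 23.9 in depleted libraries, and irradiated replicate 1 was again the highest of the 12. Kif11, the motor that separates the spindle poles, stood at 24.4, 11.7, 27.7 and 25 in sham, 23.5, 15, 8.9 and 13.7 in irradiated and 13.5, 21.6, 5.64 and 5.98 in depleted libraries, with a log2 change of -1.0 ± 0.404 (SE, limma, adjusted p = 0.128) from sham to depleted, called without depleted replicate 2 alone (adjusted p = 0.0399 there, and 0.0399 to 0.309 over all alternatives). The remaining tested genes of mitosis in the epithelium (Aurka, Cdc20, Kif20a and Tpx2) changed between -0.69 (Tpx2) and -0.03 (Cdc20) on the log2 scale with irradiation and between -0.96 (Tpx2) and 0.25 (Aurka) from sham to depleted, with 0 called. Aurkb, Birc5, Cdc25c and Ccnb1, which were not tested there, reached at most 16.7 (Ccnb1) in any library.

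The comparison of depleted with irradiated epithelium asks what the antibody changed within irradiated lungs. Of the 35 tested genes 0 were called (limma), where 0.475% of all tested genes were, with 2 genes at an unadjusted p under 0.05 (Bub1 and Cdc6), beside 12.4% of all tested genes, and 0 calls by edgeR and DESeq2. The median log2 change was -0.09 and turned to 0.09 without irradiated replicate 1. Bub1 was the 1 gene of the 35 with every depleted library below every irradiated one, as for 3.18% of all tested genes. Depleted replicate 4 was the lowest of its group for 21 of the 35 genes, 60%, and for 27.4% of all tested genes. It also held the highest Cdkn1a of the depleted libraries, 5516 against 3762, 3231 and 3379.9, and a link between the 2 was not tested.

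**Figure D3:**
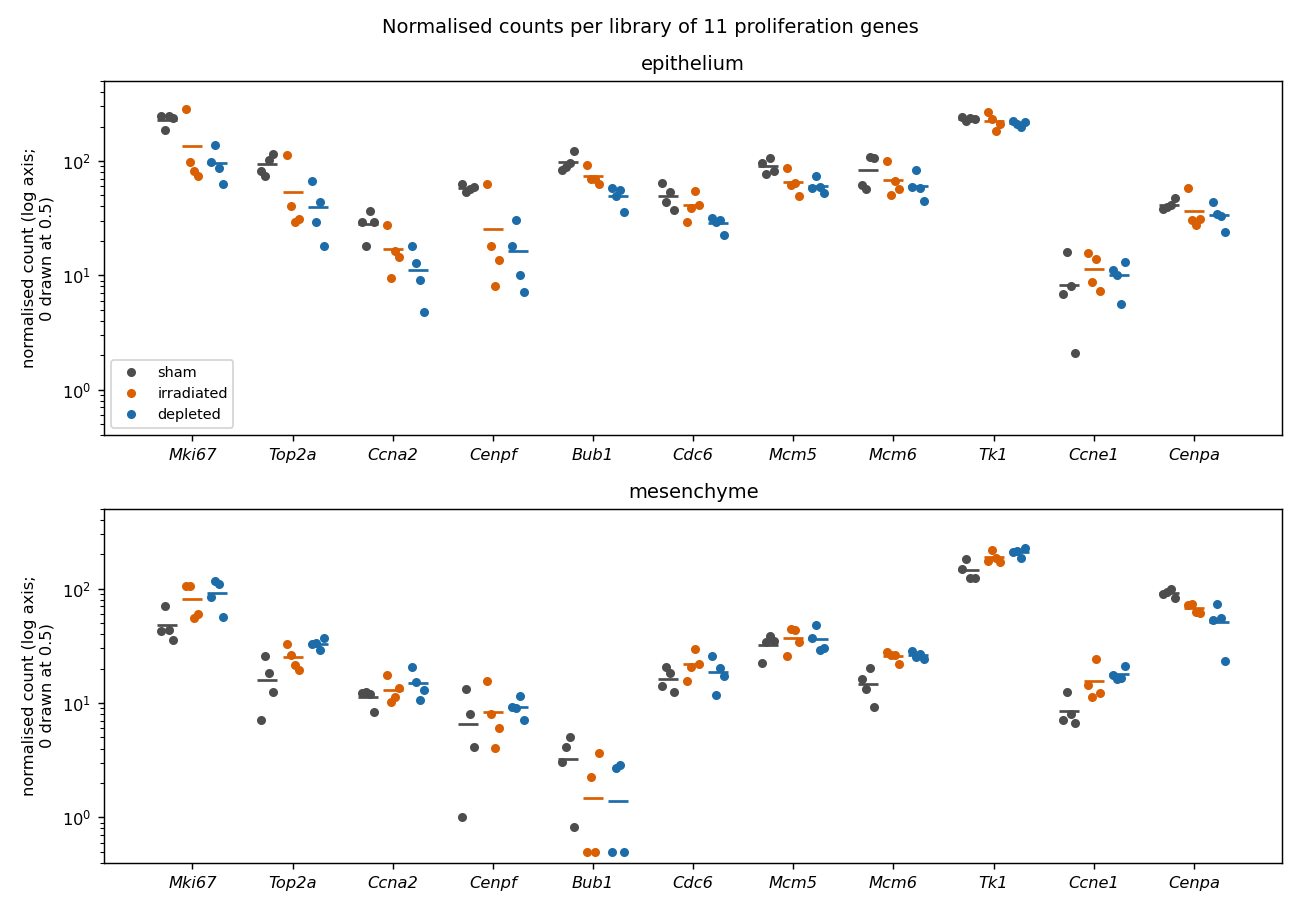
Normalised count (y axis, log scale, 0 drawn at 0.5) of 11 genes (x axis) in every library of the epithelium and the mesenchyme. Points are libraries and bars are means of 4. In the epithelium the depleted points of Mki67, Top2a, Ccna2, Cenpf, Bub1, Cdc6 and Mcm5 lie under the sham points, and in the mesenchyme those of Top2a, Mcm6, Tk1 and Ccne1 lie above them.

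In the mesenchyme, irradiation called 0 of the 31 tested genes (limma), where 3.8% of all 16624 tested genes were called. There were 7 genes of the 31 at an unadjusted p under 0.05, beside 21% of all tested genes, and edgeR and DESeq2 called 0. The median log2 change was 0.14 against -0.01 over all genes, and 21 of the 31 were fitted above 0, as were 48.5% of all. Tk1 passed only without sham replicate 2 (adjusted p = 0.0228 there, 0.0228 to 0.278 over all alternatives). Irradiated libraries lay wholly above sham for Mcm6 and Mybl2, 2 of the 31, as for 6.26% of all tested genes, and wholly below for Ccne2 and Cenpa, as for 5.55%.

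Against the same sham libraries, depleted mesenchyme had 5 of the 31 genes higher and 1 lower (limma, adjusted p under 0.05), where 8.51% of all tested genes rose and 6.7% fell. Top2a, Mki67, Mcm6, Tk1 and Ccne1 rose, and Cenpa fell. Ccne1, which also counts among the genes without overlap below, was under 10 in most sham libraries. It passed the filter through the irradiated and depleted groups, where it was higher. The median log2 change was 0.23 against -0.01 over all genes. Groups did not overlap for 6 higher genes (Top2a, Ccne1, Mcm6, Rrm2, Tk1 and Mybl2), as for 10.3% of all tested genes, and for 2 lower ones (Rrm1 and Cenpa), as for 9.07%. Tk1 stayed called with each library left out in turn. The call count was 2 without sham replicate 1 (Mcm6 and Tk1) or depleted replicate 1 (Cenpa and Tk1), and 3 without sham replicate 3 (Mcm6, Tk1 and Top2a) or sham replicate 4 (Cenpa, Tk1 and Top2a). It was 4 without depleted replicate 2 (Cenpa, Mcm6, Tk1 and Top2a) or depleted replicate 4 (Cenpa, Mcm6, Mki67 and Tk1), 5 without depleted replicate 3 (all but Mki67) and 7 without sham replicate 2, where Mcm3 joined the 6. In all 3 groups replicate 2 held the highest leukocyte marker sum (1144 in sham, 2549 in irradiated and 1970.5 in depleted mesenchyme). Sham and depleted replicate 2 also held the highest Mki67 of their groups. Of the other risers in the depleted group, Top2a, Tk1 and Ccne1 were highest in replicate 4 and Mcm6 in replicate 1. Depleted replicate 2 was the highest of its group for 13 of the 31 genes, 41.9%, and for 21.8% of all tested genes. Sham replicate 2 was the highest of its group for 10, 32.3%, and for 23.5% of all tested genes. For irradiated replicate 2, with the largest leukocyte sum, these were 7, 22.6%, and 24.1%. Of the 10 leukocyte markers 1 rose from sham to depleted, and of the 10 pan-epithelial markers 5 rose, with median log2 changes of 0.67 and 1.04. Of 11 tested macrophage markers 5 rose, with a median of 1.54, and of 9 tested neutrophil markers 6 rose, with a median of 2.31. Their part in these changes was not tested.

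Of the licensing and helicase genes in the mesenchyme, Mcm6 (ENSMUSG00000026355, chromosome 1, 128331590 to 128359664) stood at 16.2, 13.2, 20.2 and 9.15 in sham, 27.9, 26.2, 26.4 and 22 in irradiated and 28.7, 25.2, 27.1 and 24.2 in depleted libraries. Both irradiated groups lay above all sham libraries. The log2 change of Mcm6 was 0.81 ± 0.236 (SE, limma, adjusted p = 0.0674) with irradiation and 0.85 ± 0.236 (SE, limma, adjusted p = 0.024) from sham to depleted, and the latter passed, with adjusted p of 0.0163 to 0.0683 over the alternatives. Mcm3 stood at 82.2, 101, 77.7 and 74 in sham, 97, 83.1, 77.3 and 81.7 in irradiated and 108, 113, 97.6 and 103 in depleted libraries, with depleted replicates 1, 2 and 4 above every sham library and the log2 change from sham to depleted at 0.34 ± 0.126 (SE, limma, adjusted p = 0.0839). Mcm4 stood at 356, 344, 279 and 277 in sham, 284, 331, 344 and 300.0 in irradiated and 331, 357, 299 and 335 in depleted libraries. Mcm5 stood at 22.3, 33.9, 38.4 and 34.9 in sham, 25.8, 44.4, 43.7 and 34.2 in irradiated and 36.9, 47.7, 29 and 30.2 in depleted libraries. Neither gene separated the groups. Cdc6 stood at 14.2, 20.7, 18.2 and 12.5 in sham, 15.5, 20.5, 29.5 and 22 in irradiated and 25.6, 11.7, 20.3 and 17.1 in depleted libraries, again with overlap. Cdc45 stood at 9.13, 8.27, 17.2 and 8.32 in sham, 8.25, 3.41, 14.2 and 8.54 in irradiated and 19.5, 21.6, 8.7 and 16.1 in depleted libraries, and was below 10 in most libraries.

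Tk1 (ENSMUSG00000025574, chromosome 11, 117815526 to 117826092) stood at 148, 181, 125 and 124 in sham, 173, 219.7, 186 and 171 in irradiated and 209, 215, 184 and 228 in depleted libraries of the mesenchyme. Each depleted library was above each sham library, and the log2 change was 0.54 ± 0.126 (SE, limma, adjusted p = 0.00927), with adjusted p of 0.00196 to 0.0381 over every alternative run. Rrm2 stood at 10.1, 11.6, 15.1 and 15 in sham, 13.4, 10.2, 10.2 and 11 in irradiated and 15.4, 17.1, 19.3 and 25.2 in depleted libraries. Depleted libraries lay above both other groups, and its log2 change was 0.72 ± 0.256 (SE, limma, adjusted p = 0.15) from irradiated to depleted, not called. Rrm1 stood at 355, 398, 364 and 353 in sham, 411, 332, 418 and 362 in irradiated and 333, 315, 343 and 338 in depleted libraries, with every depleted library below every sham library and a change of -0.15 ± 0.0813 (SE, limma, adjusted p = 0.252) on the log2 scale. The 2 subunits of ribonucleotide reductase thus lay on opposite sides of sham in depleted mesenchyme, without a call for either.

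Ccne1 (ENSMUSG00000002068, chromosome 7, 38097984 to 38107534), the cyclin E1 gene, stood at 7.1, 12.4, 8.08 and 6.65 in sham, 14.4, 11.4, 24.4 and 12.2 in irradiated and 17.4, 16.2, 16.4 and 21.2 in depleted libraries of the mesenchyme. Sham replicates 1, 3 and 4 lay under 10, so Ccne1 passed the filter through the irradiated and depleted groups, where it was higher. Depleted libraries lay above all sham libraries, with a log2 change of 1.00 ± 0.295 (SE, limma, adjusted p = 0.0309). That call ended under 9 of 22 alternatives, with 6 of the single libraries left out (sham replicates 1, 3 and 4 and depleted replicates 1, 2 and 4) and with no filter, quantile normalisation and DESeq2, over an adjusted p of 0.0187 to 0.0847. Ccne2 stood at 19.3, 17.4, 17.2 and 15 in sham, 9.28, 10.2, 10.2 and 13.4 in irradiated and 10.2, 10.8, 12.6 and 15.1 in depleted libraries, with irradiated libraries wholly below sham and a log2 change of -0.63 ± 0.249 (SE, limma, adjusted p = 0.158), not called. An exon overlap with Ints8 on the other strand covers 17.4% of the exon bases of Ccne2. Mybl2, the gene of B-Myb, had log2 changes of 0.59 ± 0.265 (SE, limma, adjusted p = 0.217) with irradiation and 0.70 ± 0.265 (SE, limma, adjusted p = 0.0893) from sham to depleted, neither called.

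The later genes of the cycle were low in the mesenchyme. Ccna2 stood at 12.2, 12.4, 12.1 and 8.32 in sham, 17.5, 10.2, 11.2 and 13.4 in irradiated and 20.5, 15.3, 10.6 and 13.1 in depleted libraries. Ccnb2 stood at 15.2, 10.8, 8.08 and 15.8 in sham, 16.5, 19.3, 18.3 and 13.4 in irradiated and 18.4, 11.7, 17.4 and 28.2 in depleted libraries. Plk1 stood at 5.07, 14.1, 7.07 and 15 in sham, 9.28, 6.83, 10.2 and 12.2 in irradiated and 15.4, 8.1, 11.6 and 11.1 in depleted libraries. In each of these 3 genes the groups overlapped. Bub1 stood at 3.04, 4.14, 5.05 and 0.832 in sham, 0, 2.28, 0 and 3.66 in irradiated and 0, 2.7, 2.9 and 0 in depleted libraries, at or near the limit that a count of 0 allows, so no difference was detectable at this depth. Bub1b stood at 4.06, 4.14, 5.05 and 0.832 in sham, 9.28, 4.55, 1.02 and 7.32 in irradiated and 4.1, 10.8, 6.76 and 2.02 in depleted libraries and Cenpf at 1.01, 13.2, 8.08 and 4.16 in sham, 15.5, 7.97, 4.07 and 6.1 in irradiated and 9.22, 9, 11.6 and 7.06 in depleted libraries, and neither was tested.

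Mki67 stood at 42.6, 71.2, 43.4 and 35.8 in sham, 106, 106, 55.9 and 59.8 in irradiated and 85.1, 117, 109 and 56.4 in depleted libraries of the mesenchyme. Sham replicate 2 (71.2) lay within the range of both irradiated groups, and the other sham libraries lay below all irradiated and depleted ones. The log2 change of Mki67 was 0.74 ± 0.284 (SE, limma, adjusted p = 0.157) with irradiation and 0.91 ± 0.284 (SE, limma, adjusted p = 0.045) from sham to depleted. The second was called, and its adjusted p ranged from 0.00516 to 0.119 over the alternatives, with the call ended without sham replicate 1, 3 or 4, without depleted replicate 1, 2 or 3, and with no filter. Top2a stood at 7.1, 25.7, 18.2 and 12.5 in sham, 33, 26.2, 21.4 and 19.5 in irradiated and 32.8, 33.3, 29 and 37.3 in depleted libraries. It rose by 1.14 ± 0.308 on the log2 scale from sham to depleted (limma, adjusted p = 0.0202), with no overlap and adjusted p of 0.0051 to 0.0553 over the alternatives. With irradiation its change was 0.73 ± 0.308 (SE, limma, adjusted p = 0.187), not called.

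Cenpa (ENSMUSG00000029177, chromosome 5, 30666777 to 30674830) moved the other way. It stood at 90.3, 92.7, 98.9 and 82.3 in sham, 72.2, 72.8, 63.1 and 61 in irradiated and 53.3, 72.9, 55.1 and 23.2 in depleted libraries of the mesenchyme. Both irradiated groups lay below all sham libraries, depleted replicate 4 was far the lowest, and the log2 change from sham to depleted was -0.93 ± 0.252 (SE, limma, adjusted p = 0.0225). The call held without depleted replicate 4 (log2 change -0.59, adjusted p = 0.0193) and ended without sham replicate 1 or 3 and with the 2 groups fitted alone, within a range of 0.00616 to 0.0671. Kif11 stood at 13.2, 9.93, 14.1 and 3.33 in sham, 13.4, 19.3, 16.3 and 8.54 in irradiated and 15.4, 9.9, 2.9 and 9.07 in depleted libraries, with wide overlap. The remaining 12 tested genes in the mesenchyme (Cdt1, Mcm2, Mcm7, Pcna, Tyms, E2f1, Foxm1, Aurka, Cdc20, Kif20a, Tpx2 and Cenpe) changed between -0.20 (Tyms) and 0.61 (Cenpe) on the log2 scale with irradiation and between -0.29 (Kif20a) and 0.37 (Cenpe) from sham to depleted, with 0 called. Aurkb, Birc5, Cdc25c, Cdk1 and Ube2c, which were not tested there, reached at most 18.1 (Birc5) in any library.

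Between depleted and irradiated mesenchyme 0 of the 31 genes were called (limma), where 2.69% of all tested genes were, with 4 at an unadjusted p under 0.05 (Mcm3, Rrm1, Rrm2 and Cdc45), beside 17.9% of all tested genes, and 0 calls by edgeR and DESeq2. The median log2 change was 0.07. Depleted libraries lay wholly above irradiated ones for Mcm3 and Rrm2, 2 of the 31, as for 6.09% of all tested genes. Cdc45 had the largest fitted rise among the 31, 0.92 ± 0.402 (SE, limma, adjusted p = 0.237) on the log2 scale, at levels of 3.41 to 21.6. Most of the libraries in which Cdc45 reached the minimum of the filter were depleted ones. It thus passed the filter mainly through the depleted group, and such a filter favours a fitted rise.

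The 2 fractions were compared by the difference of their log2 changes, in 1 fit of all 24 libraries over the 15092 genes tested in both tables. For irradiation against sham 0 of the 31 genes differed (limma, the 1 tool run here), where 0.629% of all genes did, with 8 genes at an unadjusted p under 0.05, beside 13.3% of all genes, and a median difference of -0.46. Without epithelial irradiated replicate 1, Mki67 (-2.16, adjusted p = 0.0114), Top2a (-2.17, adjusted p = 0.0369) and Cenpe (-1.77, adjusted p = 0.0472) passed, and Tk1 passed without mesenchymal sham replicate 2 (-0.58, adjusted p = 0.0467). Over all alternatives the adjusted p of these 4 ranged from 0.0114 to 0.235, 0.0369 to 0.259, 0.0472 to 0.456 and 0.0467 to 0.368. For depleted against irradiated 0 differed (limma), where 0.596% of all genes did, with 3 at an unadjusted p under 0.05, beside 11.3% of all genes.

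For depleted against sham, a difference tested after the values had been seen, 5 of the 31 genes differed and all 5 were lower in the epithelium, where 5.21% of all genes differed, 3.03% of all genes were lower and 2.17% higher. Top2a changed by -1.35 in the epithelium and 1.14 in the mesenchyme, a difference of -2.49 ± 0.556 (SE, limma, adjusted p = 0.0089). Mki67 changed by -1.28 and 0.91, a difference of -2.19 ± 0.503 (SE, limma, adjusted p = 0.0123). For Tk1 the changes were -0.13 and 0.54, differing by -0.67 ± 0.164 (SE, limma, adjusted p = 0.0152). These 3 differences passed under every alternative run, with adjusted p of 0.00207 to 0.0216, 0.00108 to 0.0285 and 0.00264 to 0.0411. Mcm6 differed by -1.27 ± 0.35 (SE, limma, adjusted p = 0.0333) and Ccna2 by -1.71 ± 0.474 (SE, limma, adjusted p = 0.0333), and both calls ended together without epithelial sham replicate 3 or 4, epithelial depleted replicate 3 or 4, mesenchymal sham replicate 4 or mesenchymal depleted replicate 1, which left 3 calls. Ccna2 was also lost without epithelial sham replicate 1, mesenchymal sham replicate 3 or mesenchymal depleted replicate 2, and Mcm6 without epithelial depleted replicate 1, which left 4 calls. With no filter or with quantile normalisation the call of Ccna2 ended as well. Their adjusted p ranged from 0.0204 to 0.0796 for Mcm6 and 0.0147 to 0.08 for Ccna2.

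**Figure D4:**
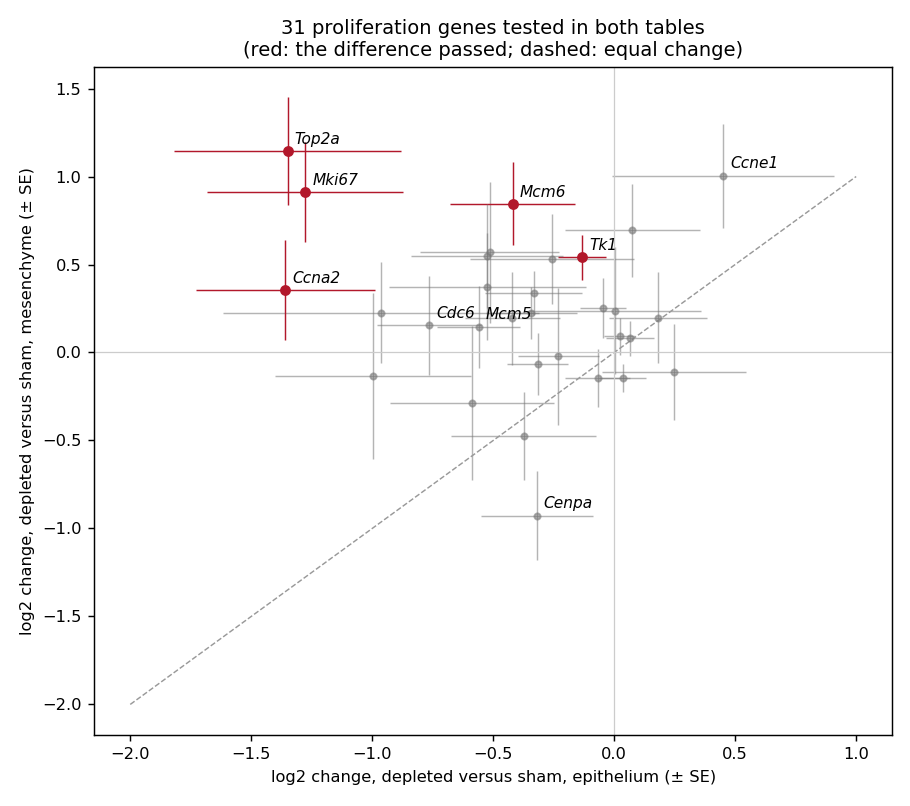
Log2 change from sham to depleted in the epithelium (x axis) and in the mesenchyme (y axis) of the 31 genes tested in both tables, with standard errors as bars. The dashed line marks equal change. Top2a, Mki67, Ccna2, Mcm6 and Tk1, in red, lie above the line with a difference that passed.

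Other cell cycle genes, from lists chosen by function but with earlier results of these data known, give the setting. Of 46 tested further S phase genes in the epithelium, 0 rose and 0 fell with irradiation, 0 rose and 0 fell from irradiated to depleted, and 0 rose and 4 fell from sham to depleted (Cdca7, Gmnn, Pola1 and Hells). Cdca7 changed by -0.86 ± 0.182 (SE, limma, adjusted p = 0.00521) on the log2 scale, and Gmnn, whose product geminin blocks relicensing, by -0.70 ± 0.198 (SE, limma, adjusted p = 0.0293). In the mesenchyme, of 43 tested, 1 rose and 0 fell with irradiation (E2f7, 1.53 ± 0.387, adjusted p = 0.0401), 1 rose and 0 fell from irradiated to depleted (Pole2, 1.16 ± 0.221, adjusted p = 0.00964) and 5 rose and 0 fell from sham to depleted (Timeless, Uhrf1, Gins2, Dnmt1 and E2f7). Uhrf1, which recruits the methyltransferase Dnmt1 to replicated DNA, stood at 6.09, 6.62, 5.05 and 6.65 in sham, 13.4, 23.9, 14.2 and 4.88 in irradiated and 23.6, 24.3, 13.5 and 19.1 in depleted libraries of the mesenchyme and at 27.3, 29.7, 44.7 and 47.9 in sham, 40.1, 12.6, 11.3 and 15.3 in irradiated and 21.3, 20.3, 19.2 and 7.18 in depleted libraries of the epithelium. All mesenchymal sham libraries lay under 10 for Uhrf1, so it passed the filter there through the irradiated and depleted groups. The difference between its changes from sham to depleted was -2.70 ± 0.568 (SE, limma, adjusted p = 0.00506). Beside these counts, 11.3% of all epithelial and 15.2% of all mesenchymal genes tested were called from sham to depleted.

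Of 50 tested further G2 and M phase genes in the epithelium, 1 rose and 0 fell with irradiation (Gtse1), 0 rose and 0 fell from irradiated to depleted, and 1 rose and 5 fell from sham to depleted. Prc1, Kif23, Nuf2, Mastl and Sgo2a fell there, by log2 changes of -0.69, -1.09, -1.31, -0.83 and -0.88, while Gtse1 rose. The median of the 50 was -0.36. In the mesenchyme, of 30 tested, 2 rose and 0 fell with irradiation (Gtse1 and Ckap2), 0 rose and 0 fell from irradiated to depleted, and 2 rose and 1 fell from sham to depleted (Gtse1 and Ckap2, with Hjurp lower at -0.25). Gtse1, a spindle protein that is also induced by p53, stood at 17.6, 22.3, 17 and 14.6 in sham, 31.3, 51.2, 42.9 and 45 in irradiated and 43.8, 50.8, 41.8 and 43.1 in depleted libraries of the epithelium. In the mesenchyme Gtse1 stood at 6.09, 7.45, 3.03 and 2.49 in sham, 33, 39.8, 24.4 and 29.3 in irradiated and 31.8, 29.7, 29 and 38.3 in depleted libraries. It rose in irradiated against sham libraries by 1.20 ± 0.197 (SE, limma, adjusted p = 0.00194) in the epithelium and 2.58 ± 0.296 (SE, limma, adjusted p = 0.000119) in the mesenchyme, on the log2 scale. Ckap2, a protein of the spindle microtubules, stood at 6.09, 9.1, 4.04 and 4.99 in sham, 39.2, 56.9, 25.4 and 36.6 in irradiated and 53.3, 39.6, 46.4 and 70.6 in depleted libraries of the mesenchyme. Every mesenchymal sham library lay under 10 for Gtse1 and Ckap2, so both passed the filter there through the irradiated and depleted groups. The irradiation change of Ckap2 was lower in the epithelium by a difference of -2.06 ± 0.362 (SE, limma, adjusted p = 0.0079). In the epithelium Ckap2 stood at 15.6, 18, 17 and 20.8 in sham and 29.4, 33.9, 19.4 and 19.3 in irradiated libraries, not called. Beside the counts of these genes, 3.14% of all epithelial and 3.8% of all mesenchymal genes were called with irradiation, and 11.3% and 15.2% from sham to depleted.

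Of the G1 and DREAM genes, 25 were tested in the epithelium and 26 in the mesenchyme. With irradiation 1 rose and 0 fell in the epithelium (Ccnd2, 0.24 ± 0.0614, adjusted p = 0.041) and 1 rose and 0 fell in the mesenchyme (Ccnd1, the cyclin D1 gene, 1.14 ± 0.169, adjusted p = 0.00144). From irradiated to depleted 0 rose and 0 fell in the epithelium and 0 rose and 0 fell in the mesenchyme. From sham to depleted 1 rose and 2 fell in the epithelium (Cdk2 higher, Cdc25a and Cdk7 lower) and 3 rose and 1 fell in the mesenchyme (Myc, Ccnd1 and Tfdp2 higher, Ccnc lower), where 11.3% of all epithelial and 15.2% of all mesenchymal genes were called. Of 6 tested inhibitors of cyclin-dependent kinases, 1 rose and 0 fell with irradiation in the epithelium and 1 rose and 0 fell in the mesenchyme, and the riser was Cdkn1a in both. Cdkn1a stood at 532, 559, 533 and 455 in sham, 2545, 4162, 3126 and 3453 in irradiated and 3762, 3231, 3379.9 and 5516 in depleted libraries of the epithelium and at 571, 761, 598 and 541 in sham, 2335, 3051, 2526 and 2722 in irradiated and 3382, 2945, 2823 and 3892 in depleted libraries of the mesenchyme. It changed by 2.65 ± 0.187 (SE, limma, adjusted p = 3.7e-05) in the epithelium and by 2.11 ± 0.121 (SE, limma, adjusted p = 2.1e-07) in the mesenchyme with irradiation, and no irradiated or depleted library overlapped sham. From irradiated to depleted 0 rose and 0 fell in the epithelium and 0 rose and 0 fell in the mesenchyme. From sham to depleted, Cdkn1a was the 1 inhibitor that rose in the epithelium, and in the mesenchyme Cdkn1a and Cdkn2d (0.54 ± 0.142, adjusted p = 0.0175) rose and Cdkn2c (-0.74 ± 0.123, adjusted p = 0.000906) fell.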

How the data were processed

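Total RNA of sorted lung cells was depleted of ribosomal RNA before library preparation with the KAPA RNA HyperPrep kit with RiboErase, per the labels' protocols. Where the cell type entries give CD31 for the gate, that protocol repeats CD45. Per the submitters' processing notes, the tools were cutadapt 1.5, STAR 2.2.2a, SAMtools 1.8, RSEM 1.3.0 and DESeq2, on GRCm38; the annotation release and strand setting are not given in the sources used here. The deposited values are a signal in normalised counts, gene counts that the authors divided by 1 size factor per library. Positive values were whole multiples of 1 step within 0.001 in every library, which gave back whole reads, possibly rounded estimates of RSEM. That step was within 1% of 1 for mesenchymal sham replicate 3 and depleted replicate 4.

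The comparisons were fitted with limma 3.58.1 in R 4.3.3 (trend, robust) on log2(normalised count + 1), the 3 groups of a table in 1 fit, for genes with at least 10 in at least 4 of 12 libraries, and p-values were adjusted by Benjamini-Hochberg over all tested genes. A called gene has an adjusted p under 0.05. Fold changes are on the log2(value + 1) scale, which understates the change of low genes. Differences between the fractions are contrasts in 1 fit of 24 libraries. The fits were tested on simulated counts with the same spread for all genes and with changes placed only in genes above a minimum mean count. That test does not cover the low genes here. Alternatives were pseudocounts of 0.5 and 8, no filter or a mean of at least 50, TMM and quantile scaling, the 2 groups alone, library weights, a replicate block, edgeR 4.0.16 and DESeq2 1.42.0 on the recovered reads, and each library left out. Symbols and exon lengths came from GENCODE M21, which matched 48349 of 48795 identifiers.

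The members and gene lists were chosen with earlier results of these data known. Values in every library are given for Mki67, Top2a, called members and the 6 members of lowest p in each comparison, 21 in all. Of the other lists (further S phase genes, further G2 and M phase genes, G1 and DREAM genes, inhibitors of cyclin-dependent kinases) called genes are named, at most 5 a direction. Ube2c, Ccnb1, Cdk1 and Cenpe were named after their values were seen.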

Additional observations from a re-analysis of the deposited data

Results flagged for a closer look

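In 7 of 132 groups of 4 libraries examined, 1 library stood apart from the other 3 by Dixon's test at the 95% level, a share that chance gives in about 5% of groups. In the epithelium 3 of the 7 concern irradiated replicate 1. Its Mki67 was 287 against 74 to 98.5 in the other 3 irradiated libraries, its Top2a 113 against 29.1 to 40.2, and its Cenpa 57.7 against 27.5 to 31.3, as normalised counts. Mki67 was low in epithelial sham replicate 2, at 186 against 238 to 247. Rrm2 was low in epithelial depleted replicate 2, at 12.7 against 15.6 to 15.8. In the mesenchyme Ccna2 was low in sham replicate 4, at 8.32 against 12.1 to 12.4, and Cdc45 was high in sham replicate 3, at 17.2 against 8.27 to 9.13.

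The change from sham to depleted differed between the fractions for 5 genes, by the contrast of the 2 changes in 1 fit (limma, 4 libraries a group). This contrast was tested after the values had been seen. As epithelium minus mesenchyme on the log2 scale the difference was -2.49 for Top2a, -2.19 for Mki67, -1.71 for Ccna2, -1.27 for Mcm6 and -0.67 for Tk1. All 5 had fitted changes of opposite sign in the 2 fractions, but none was called in both. The mesenchymal change of Ccna2 was 0.35 (limma, adjusted p = 0.446). The epithelial changes of Top2a, Mki67, Tk1 and Mcm6 were not called (limma, adjusted p = 0.0952, 0.0762, 0.445 and 0.346).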

How the results depend on the processing

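Over the 3 comparisons in each fraction and the differences between the fractions, 291 changes of the tested genes of the 40 were fitted. None of the 31 that passed in at least 1 fit turned its sign under any alternative run, while 93 of the 291 did so, each of them called in no fit. The causes of the shifts were not tested. With 1 library left out, the number of tested genes of the 40 called ranged from 0 to 4 for irradiated against sham, 0 to 0 for depleted against irradiated and 1 to 7 for depleted against sham in the epithelium. It ranged from 0 to 1, 0 to 0 and 2 to 7 in the mesenchyme, and from 0 to 3, 0 to 0 and 3 to 5 for the differences between the fractions in irradiation, depletion and depleted against sham. The median of the tested genes in depleted against irradiated epithelium turned from -0.09 to 0.09 without epithelial irradiated replicate 1. A filter on a mean of at least 50, which tests fewer genes, left 2 of 16 called in depleted against sham epithelium, 3 of 11 in mesenchyme and 2 of 10 in the difference. The share of all genes called under that filter is not given here, so these counts are a description only. The same filter moved the median in mesenchyme from 0.14 to 0.02 with irradiation (0.03 with quantile normalisation) and from 0.23 to 0.09 from sham to depleted. It moved the median differences from -0.46 to -0.15 and from -0.62 to -0.28.

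Same-numbered libraries of 1 table did not deviate together in every pair (correlations of deviations from the group means, -0.11 to 0.152 in the epithelium and -0.05 to 0.172 in the mesenchyme). Between the 2 tables, same-numbered libraries of 1 treatment correlated at -0.04 to 0.255 (median 0.107, n = 12). Different-numbered ones correlated at -0.187 to 0.108 (median -0.02, n = 36). Same-numbered fractions thus deviated together more on the median, and whether they share mice is not settled by the labels. The main fit of the differences between the fractions treats all libraries as independent. With a replicate block 2 genes (Mcm6 and Mki67) were called in irradiated against sham mesenchyme and 1 (Mki67) in the irradiation difference, where 0 were called without it.

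Over all tested genes, irradiated against sham called 522 in the epithelium (964 with library weights, 816 by DESeq2, 214 to 653 with 1 library left out) and 631 in the mesenchyme (1048 with a replicate block, 1055 by DESeq2, 184 to 1073 with 1 left out). Depleted against irradiated called 79 in the epithelium (52 at a mean of at least 50, 32 with the 2 groups alone, 289 by DESeq2, 36 to 199 with 1 left out) and 448 in the mesenchyme (291, 785 and 182 to 806 for the last 3 of these). Depleted against sham called 1876 (1187 to 1934 with 1 left out) and 2528 (1571 to 2732). The irradiation difference called 95 (63 with quantile normalisation, 218 with a replicate block, 48 to 334 with 1 left out), the depletion difference 90 (59 with no filter, 43 to 152) and the difference in depleted against sham 786 (565 to 996).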
